A study of Mus musculus with 20 samples.

Results

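Integrin and laminin subunit genes were followed in melb-a cells, an immortal line of mouse melanoblasts, the unpigmented precursors of melanocytes. They were taken by symbol, as every gene row whose name is that of an integrin alpha or beta subunit (Itga or Itgb with a number or letter) or of a laminin chain (Lama, Lamb or Lamc with a number). The rule found 37 of the 29956 rows: 18 integrin alpha, 8 integrin beta and 11 laminin genes. Of these, 31 had 10 or more counts in at least 4 libraries and were tested; Itgad, Itgam, Itgax, Itgb7, Lama3 and Lamc3 did not. Poly(A) RNA had been sequenced from 20 libraries, 4 in each of 5 groups, to learn what loss of HIRA, a chaperone of the histone variant H3.3, does to the transcriptome of these cells. The groups were cells carrying one of a pair of lentiviral short hairpin RNAs against Hira (shHIRA I or shHIRA II), cells carrying a lentiviral control hairpin (shLuciferase or shScramble), and parental cells that received no virus. All groups are the same line, labelled wild type, and shared a serum-containing RPMI medium with SCF and Fgf2. Transduced cells were selected with puromycin, and parental cells were not transduced. The labels tie the knockdown to the hairpin alone, name no rescue, and describe 1 cell line, so a hairpin's own action and the loss of its target cannot be told apart within a group.

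Integrins are receptors made of 1 alpha and 1 beta subunit that link the extracellular matrix to the actin or, for the pair of Itga6 and Itgb4, to the keratin cytoskeleton. Laminins are secreted trimers of 1 alpha, 1 beta and 1 gamma chain and form the backbone of basement membranes. The alpha chain carries the main integrin-binding site, read by Itga3, Itga6 and Itga7 with Itgb1 and by Itga6 with Itgb4. Melanoblasts leave the neural crest, cross the dermis and enter the epidermis across a basement membrane, and integrins with Itgb1 are known to be needed for the melanoblast lineage in mice.

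The stretches before the starts of 4 members are shown as examples of each direction. Lamb1 and Itga3 were higher, and Lama2 and Itga1 lower, in cells with HIRA hairpins. The choice does not follow the size of change. With both HIRA hairpins pooled against both control hairpins, Itgb4, Itgb2 and Itga2 changed more than Itga3 or Itga1. Itgb4 and Itgb2 had no promoter entry. The stretches are RefSeq sequences of GRCm38.p6, written 5′ to 3′ on the gene's strand without bases that GENCODE M21 places in an exon. Capitals mark GC boxes (GGGCGG, or CCGCCC on the other strand) and CCAAT boxes (CCAAT). The Lamb1 stretch, chr12:31265043-31265233 on the plus strand, ends 60 bases before the RefSeq start, and the Itga3 stretch, chr11:95076802-95076964 on the minus strand, ends 88 bases before it. The Lama2 stretch, chr10:27616943-27617192, and the Itga1 stretch, chr13:115101965-115102214, both on the minus strand, end at the last base before it. The Lama2 stretch lies within the span that GENCODE gives the gene, outside its exons.
Lamb1: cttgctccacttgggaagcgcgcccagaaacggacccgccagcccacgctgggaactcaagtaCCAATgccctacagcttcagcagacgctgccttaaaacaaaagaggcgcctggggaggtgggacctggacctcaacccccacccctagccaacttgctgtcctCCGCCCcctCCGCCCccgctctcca
Itga3: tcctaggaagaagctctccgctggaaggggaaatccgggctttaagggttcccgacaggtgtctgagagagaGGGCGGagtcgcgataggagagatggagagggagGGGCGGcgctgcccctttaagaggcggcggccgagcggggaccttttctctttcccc
Lama2: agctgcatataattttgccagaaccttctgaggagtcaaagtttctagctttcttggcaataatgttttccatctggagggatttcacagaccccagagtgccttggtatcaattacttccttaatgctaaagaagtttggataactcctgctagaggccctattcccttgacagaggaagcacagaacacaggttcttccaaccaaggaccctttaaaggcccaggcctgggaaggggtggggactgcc
Itga1: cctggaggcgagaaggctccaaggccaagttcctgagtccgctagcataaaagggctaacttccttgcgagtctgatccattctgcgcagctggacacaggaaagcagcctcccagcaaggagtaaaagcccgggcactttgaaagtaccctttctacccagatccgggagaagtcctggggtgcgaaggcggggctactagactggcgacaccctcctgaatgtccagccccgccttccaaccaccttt
The Lama2 stretch held no CpG, while those of Lamb1, Itga3 and Itga1 held 10, 12 and 10. Over windows of 250 bases, 23 members had an entry; 1 of them held no CpG, against 7.87% of all 32851 promoters, and their median GC content was 58.4%, against 52.4% for all. Each motif was searched on both strands. A GC box stood in 8 of the 23 windows and in 32.7% of all, and a CCAAT box in 3 and in 33.9% of all. A TEAD site (GGAATG) was found in 2 and in 12.6% of all, and an AP-1 site (TGANTCA) in 1 and in 6.75% of all. Neither the E-box that MiT factors bind (CACGTG; 6.02% of all) nor a TATA box (TATAAA; 12.4% of all) was in any of the 23.

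Hira, the targeted gene (GRCm38 chromosome 16, 18877037 to 18970309, plus strand), was lower in shHIRA I cells. It had 45.4, 26.6, 41.8 and 33.3 CPM (counts per 1e6, scaled by TMM) in shHIRA I cells and 63.2, 63.3, 70.9 and 69.8 CPM in libraries labelled shHIRA II. Control libraries had 89.8, 72.2, 87.1 and 63.7 CPM in shLuciferase cells, 81.7, 64.4, 71.2 and 78.97 CPM in shScramble cells and 85.3, 84.4, 81.9 and 101 CPM in parental cells. All shHIRA I values lay below every other library, whereas those of shHIRA II overlapped both control hairpins. Against control shRNA, Hira fell in shHIRA I cells (log2 fold change −1.05, SE 0.14, adjusted p = 5.14e-05) but was not measurably lower in libraries labelled shHIRA II (log2 fold change −0.19, SE 0.14, adjusted p = 0.307; −0.46 and adjusted p = 0.0395 with the mitochondrial mRNA share of each library as a covariate). Every direction given below for shHIRA II is therefore that of libraries so labelled. Libraries held 14.95 to 20.7 M counts (M, 1e6). Mitochondrial mRNA made up 5.70 ± 3.44% of counts in shHIRA I cells and 4.19 ± 0.876% in libraries labelled shHIRA II, against 7.98 ± 1.51% in shLuciferase cells, 8.23 ± 1.06% in shScramble cells and 7.17 ± 1.40% in parental cells (SD, n = 4 each). Among the members, replicate 2 of shLuciferase lay far from its group for Itga3, Itga6 and Lama5, and replicate 3 of shHIRA I for Itgb5; that shHIRA I library also had the lowest mitochondrial share, 1.23%. The 10 melanocyte lineage markers summed to 975 to 2987 TPM (transcripts per 1e6, corrected for length) in shHIRA I cells. Sums were 661 to 1065 TPM in libraries labelled shHIRA II and 2481 to 4287 TPM over the control hairpins. Parental cells had 2545 to 3637 TPM. Of the 9 markers tested, 7 were lower in the pooled shHIRA groups than with the control hairpins, against 15% of all genes. Sox10, a defining regulator of the lineage, was at 0.054 TPM or less in every shLuciferase library and at most 11.2 TPM elsewhere, while Pax3 was at 30.0 to 72.4 TPM in all 20 libraries. The 6 fibroblast markers summed to 50.1 to 110 TPM in shHIRA I cells and 5.14 to 11.03 TPM in libraries labelled shHIRA II, against 20.4 to 39.9 TPM over the control hairpins and 18.8 to 33.3 TPM in parental cells. In shHIRA I cells Dcn had 33.3 to 80.8 TPM, against 11.6 to 25.8 TPM over the control hairpins. Col1a2 had 9.99 to 27.7 TPM against 5.45 to 9.29 TPM, and Col1a1 1.70 to 6.16 TPM against 0.068 to 1.60 TPM. Pdgfra and Lum overlapped the control hairpins, with at most 1.79 and 2.29 TPM in shHIRA I cells. Thy1 was at 0 in shHIRA I, control hairpin and parental libraries alike, and at most 0.143 TPM in libraries labelled shHIRA II.

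Levels of different genes were compared per transcript length, in TPM. Itgb1, the beta subunit shared by most matrix receptors, was the most abundant member, with 293 ± 107 TPM in shHIRA I cells, 196 ± 20.3 TPM in libraries labelled shHIRA II, 225 ± 33.9 TPM in shLuciferase cells, 191 ± 16.2 TPM in shScramble cells and 210.5 ± 37.9 TPM in parental cells (SD, n = 4 each). Its laminin-binding partner Itga6 averaged 153, 73.96, 84.7, 68.6 and 91.3 TPM in the same order. Itga3, a further partner, averaged 13.6, 9.44, 5.87, 4.19 and 5.64 TPM, below Itga6 in each group. Among laminin chains, Lama4 held 57.1% of alpha chain TPM in shHIRA I cells and 61.3% in libraries labelled shHIRA II, against 66.6% in shLuciferase cells, 63.4% in shScramble cells and 67.9% in parental cells. Lama5 held most of the rest, 39.0% and 34.6%, against 25.3%, 25.7% and 23.8%. Lamb2 made up 87.4 to 98.3% of the mean beta chain TPM across the groups. The most abundant chains were thus those of laminin-421 and laminin-521, and the most abundant laminin-binding subunits were Itga6 and Itgb1. In bulk RNA, fewer cells with a transcript and less transcript per cell cannot be told apart, here and below.

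**Figure D1:**
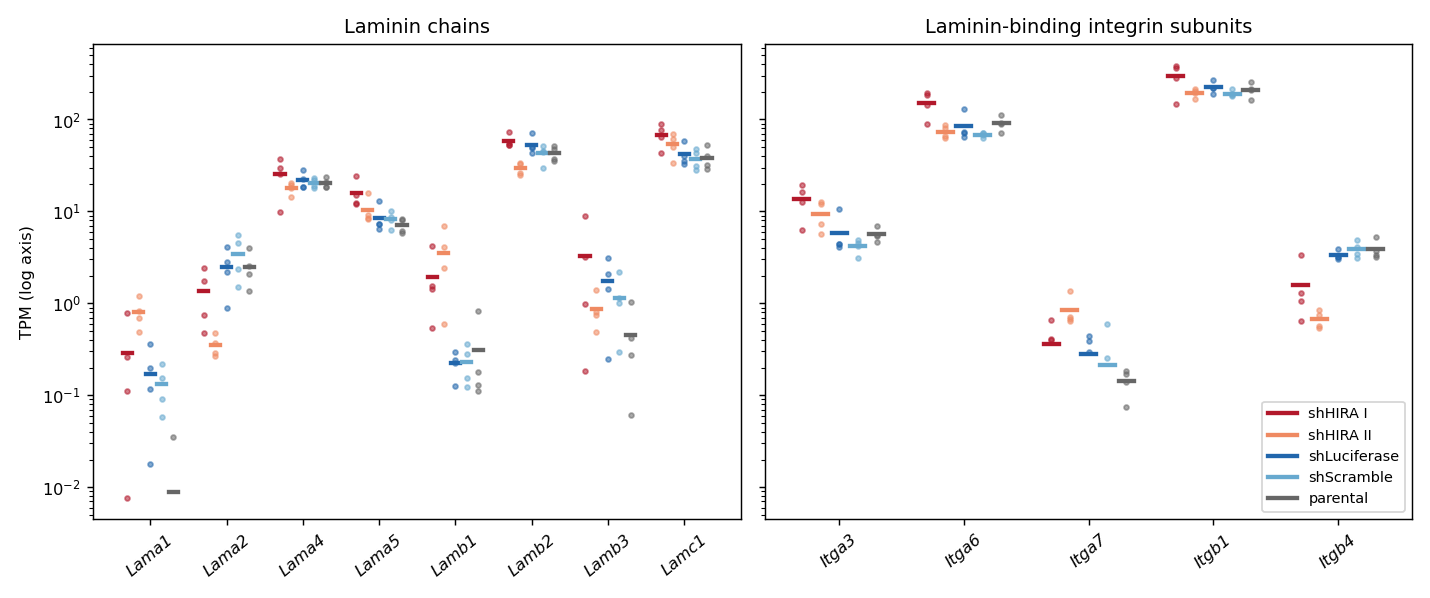
TPM (log axis) of laminin chains and of the laminin-binding integrin subunits in the 20 libraries; points are libraries, lines are group means, and libraries at 0 cannot be drawn. Itgb1, Itga6, Lamc1, Lamb2 and Lama4 are the highest in each group, and Lamb1 is above the control hairpins with both HIRA hairpins.

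Across the 5 groups, 21 of the 31 tested members differed (edgeR's quasi-likelihood F test, Benjamini-Hochberg adjusted p under 0.05 over all 13639 genes tested, as for every adjusted p here), against 37.4% of all genes tested. When the mean of the shHIRA groups was set against the mean of the control hairpins, called the pooled contrast below, 16 were called, against 29.1% of all genes. Of these, 11 were higher, against 14.1% of all genes, and 5 lower, against 15% of all. The median log2 fold change of the 31 was 0.37, against 0.03 over all genes tested. With shHIRA I alone 14 members were higher and 5 lower, against 19.6% of all genes called (10.8% higher, 8.8% lower), with a median of 0.72 against 0.05 over all. In libraries labelled shHIRA II 6 were higher and 6 lower, against 32.2% of all genes called (15.7% higher, 16.6% lower), with a median of 0.07 against 0.02 over all. Calls in opposite directions by the hairpins were made for 0 of the 31 members, against 0.557% of all genes that were higher in shHIRA I cells and lower in libraries labelled shHIRA II, and 0.286% the reverse, a share too small to read 0 of 31 against. Both hairpin comparisons share the control libraries. A refit left out shHIRA I replicate 3 and shLuciferase replicate 2, a choice made after seeing the data. It called 17 members in the pooled contrast, 19 in shHIRA I cells, 15 in libraries labelled shHIRA II and 12 between the hairpins. The shares of all genes called in that refit are not given here, so its counts are not read against those of the main fit. With the mitochondrial share as a covariate, calls lost included those of Itga2, Itgb5, Itgb6 and Lamc1 in the pooled contrast, for Itga2, Itga9, Itgb5 and Lama2 in shHIRA I cells, for Itga1, Itga2, Itgb6 and Lama1 in libraries labelled shHIRA II, and for Itgb1 and Itgb4 between the hairpins. With limma on log2(TPM + 1) and on log2(TPM + 0.1) alike, calls were lost for Itga2, Itga8 and Lama2 in shHIRA I cells, for Itgb1, Itgb4 and Lama2 between the hairpins, and for Itgb6. Of the tested members, 3 reached the count minimum mainly through the shHIRA libraries: Itgal in all 8 of them and 2 shLuciferase libraries, Itga11 in 4 of them and no other, and Itgb6 in 4 of them and 1 shLuciferase library. These had to be high there to be tested, so the counts above are no support for a direction, and no test of their own is given below.

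Setting each HIRA hairpin against each control hairpin gives 4 comparisons, and 5 members were called in 1 direction in all of them. Itgb2 and Lamb1 were higher, a pattern that 1.88% of all genes showed, and Itga1, Itgb3 and Itgb4 lower, a pattern of 2.44% of all genes. The CPM of the 8 shHIRA libraries also lay outside the range of the 8 control shRNA libraries for these 5: above it for Itgb2 and Lamb1 (1.74% of all genes), and below it for Itga1, Itgb3 and Itgb4 (2.16% of all). Itgal lay above it too, but had to be high in the shHIRA libraries to be tested. The weakest of these calls was Itgb4, whose largest adjusted p of the 4 was 0.0335. It became 0.0542 to 0.0697 without any 1 of the shLuciferase libraries, 0.0742 or 0.0933 without shHIRA I replicate 1 or 4, 0.0614 with parental cells left out and 0.0732 without shHIRA I replicate 3 and shLuciferase replicate 2. With limma the largest adjusted p of the 4 was 0.0581 for Lamb1 on log2(TPM + 1) and 0.0599 for Itga1 on log2(TPM + 0.1). With the mitochondrial mRNA share of each library as a covariate that of Itgb4 was 0.0604, and that of Itga1 was 0.223, against 0.0112 without the covariate.

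**Figure D2:**
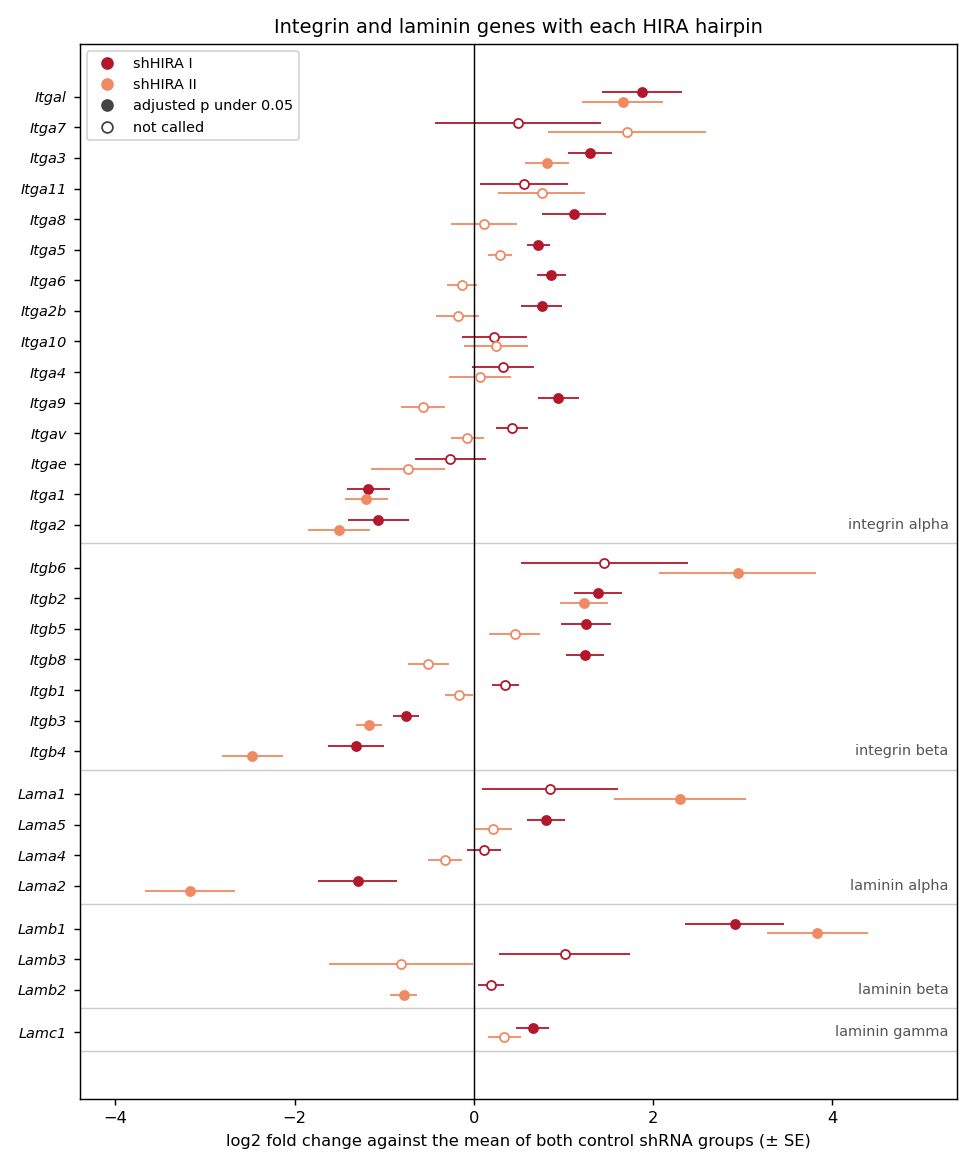
Log2 fold change (± SE) of tested members in shHIRA I cells (red) and in libraries labelled shHIRA II (orange) against the mean of both control shRNA groups, within subunit families. Filled points have an adjusted p under 0.05; Lamb1 is furthest to the right and Lama2 and Itgb4 furthest to the left, and Itgb8, Itga9 and Itga6 are among those filled for shHIRA I and open for shHIRA II.

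The laminin beta chain Lamb1, which stands in laminin-111, laminin-211, laminin-411 and laminin-511, rose the most of the members in the pooled contrast. The gene lies on chromosome 12 (31265234 to 31329644, plus strand, GRCm38, ENSMUSG00000002900.16). It had 5.28, 15.3, 2.67 and 5.94 CPM in shHIRA I cells and 27.98, 2.88, 15.4 and 9.15 CPM in libraries labelled shHIRA II. Values were 1.01, 1.19, 0.509 and 0.968 CPM in shLuciferase cells, 1.20, 0.568, 0.672 and 1.62 CPM in shScramble cells and 0.553, 0.771, 0.622 and 3.49 CPM in parental cells. Every shHIRA library lay above every control shRNA library, while parental replicate 4 lay above the lowest shHIRA libraries. Lamb1 was 10.4-fold higher in the pooled contrast (log2 fold change 3.37, SE 0.51, adjusted p = 8.51e-05). The log2 fold change was 2.91 in shHIRA I cells, and 2.26 without its replicate 2, and 3.84 in libraries labelled shHIRA II, where replicate 1 was the highest. The difference between the hairpins did not pass the threshold (log2 fold change 0.92, SE 0.64, adjusted p = 0.337). As a share of beta chain TPM, Lamb1 stayed small: 2.84 ± 1.87% in shHIRA I cells and 10.1 ± 7.86% in libraries labelled shHIRA II, against 0.408 ± 0.115% in shLuciferase cells, 0.505 ± 0.160% in shScramble cells and 0.663 ± 0.657% in parental cells (SD, n = 4 each). Its stretch shown above holds 1 CCAAT box and 2 GC boxes.

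Lamb2, the beta chain of laminin-221, laminin-421 and laminin-521, went the other way from Lamb1 in libraries labelled shHIRA II. It had 167, 217, 219 and 168 CPM in shHIRA I cells and 87.6, 99.6, 103 and 104 CPM in libraries labelled shHIRA II. Control values were 146, 243, 171 and 169 CPM in shLuciferase cells, 159, 117, 162 and 188 CPM in shScramble cells and 150.1, 182, 141 and 171 CPM in parental cells. All 4 shHIRA II values lay below all other libraries. Lamb2 fell there against control shRNA (log2 fold change −0.78, SE 0.15, adjusted p = 0.000724) and against shHIRA I (log2 fold change −0.97, SE 0.17, adjusted p = 0.000678), and was not called in shHIRA I cells (log2 fold change 0.19, SE 0.14, adjusted p = 0.385). Lamb3, the beta chain of laminin-332, ranged from 0.0518 to 8.15 CPM over the 20 libraries and was called in no comparison of shHIRA groups (pooled contrast, log2 fold change 0.10, SE 0.63, adjusted p = 0.922).

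Lama2, the alpha chain of laminin-211 and laminin-221, which is best known from muscle and Schwann cell basement membranes, was lower in cells with HIRA hairpins. The gene lies on chromosome 10 (26980036 to 27619758, minus strand, GRCm38, ENSMUSG00000019899.16). It had 3.19, 10.3, 2.74 and 7.87 CPM in shHIRA I cells and 1.25, 1.61, 2.05 and 1.63 CPM in libraries labelled shHIRA II. Levels were 4.27, 19.9, 13.6 and 10.8 CPM in shLuciferase cells, 11.5, 24.8, 7.81 and 28.01 CPM in shScramble cells and 7.68, 12.6, 11.8 and 19.9 CPM in parental cells. The shHIRA II values lay close together and below all other libraries, and those of shHIRA I overlapped the controls. Lama2 fell 4.70-fold in the pooled contrast (log2 fold change −2.23, SE 0.36, adjusted p = 0.000161) and 8.995-fold in libraries labelled shHIRA II (log2 fold change −3.17, SE 0.50, adjusted p = 0.000125). The call in shHIRA I cells (log2 fold change −1.29, SE 0.44, adjusted p = 0.0452) was lost in 14 of the 20 fits that left out 1 library (adjusted p 0.0192 to 0.132) and held without parental 1 or 4, shLuciferase 1, shScramble 1 or 3 or shHIRA I 2. The libraries labelled shHIRA II were below shHIRA I (log2 fold change −1.87, SE 0.51, adjusted p = 0.014; adjusted p = 0.0598 without shHIRA I replicate 2). The 6 Schwann cell markers summed to 89.8 to 342 TPM in shHIRA I cells and 155 to 179 TPM in libraries labelled shHIRA II, against 211.5 to 429 TPM over the control hairpins and 276 to 355 TPM in parental cells. Of these, 4 of the 6 were lower in the pooled contrast and none was higher, against 15% and 14.1% of all genes. None was at 0 in all libraries of a group. The part of Schwann cell and fibroblast markers in the Lama2 values was not tested. An antisense gene, Gm48084, overlaps exons of Lama2, whose stretch shown above holds none of the motifs searched, and the strand setting of the counting is not given in the sources used here.

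Lama5, the alpha chain of laminin-511 and laminin-521, was higher in shHIRA I cells. It had 50.8, 81.3, 56.03 and 43.7 CPM in shHIRA I cells and 31.5, 36.2, 54.9 and 31.6 CPM in libraries labelled shHIRA II. Control values were 28.04, 49.2, 28.1 and 24.8 CPM in shLuciferase cells, 39.5, 27.2, 32.7 and 35.7 CPM in shScramble cells and 36.2, 22.96, 36.6 and 24.4 CPM in parental cells. Only shLuciferase replicate 2 among the controls reached the shHIRA I range, and libraries labelled shHIRA II overlapped the controls. Lama5 rose in shHIRA I cells (log2 fold change 0.81, SE 0.21, adjusted p = 0.0107; adjusted p = 0.0563 without shHIRA I replicate 2), and was not called in libraries labelled shHIRA II (log2 fold change 0.22, SE 0.22, adjusted p = 0.467). The pooled call (log2 fold change 0.51, SE 0.18, adjusted p = 0.0374) was lost in 8 of 20 fits that left out 1 library (adjusted p 0.00702 to 0.0759), namely without shLuciferase 1, 3 or 4, shScramble 2, 3 or 4, shHIRA I 2 or shHIRA II 3.

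Lama1, the alpha chain of laminin-111 and an early embryonic form, was near 0 in parental cells, with 0 counts in 3 of the 4 libraries and 0.308 CPM in replicate 4. It had 5.91, 0.0557, 2.67 and 0.890 CPM in shHIRA I cells and 6.77, 4.78, 5.23 and 9.26 CPM in libraries labelled shHIRA II, against 3.02, 0.148, 1.68 and 1.02 CPM in shLuciferase cells and 1.90, 0.908, 1.40 and 0.499 CPM in shScramble cells. The shHIRA II values lay above all control shRNA libraries, and shHIRA I spread over the whole range. Lama1 rose in libraries labelled shHIRA II (log2 fold change 2.30, SE 0.74, adjusted p = 0.0221), without replicate 4 of which the adjusted p was 0.0621; with the mitochondrial covariate the log2 fold change was 0.67 (adjusted p = 0.736). It was not called in shHIRA I cells (log2 fold change 0.85, SE 0.76, adjusted p = 0.47) or in the pooled contrast (log2 fold change 1.58, SE 0.64, adjusted p = 0.0723). Lama4, the most abundant alpha chain, passed in no comparison (pooled contrast, log2 fold change −0.10, SE 0.15, adjusted p = 0.654), and Lama3, the alpha chain of laminin-332, had at most 16.4 counts in a library and was not tested.

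The gamma chain Lamc1, common to most laminins, was modestly higher in shHIRA I cells. It averaged 349 ± 69.5 CPM in shHIRA I cells and 280.2 ± 57.00 CPM in libraries labelled shHIRA II, against 226 ± 61.1 CPM in shLuciferase cells, 216 ± 45.3 CPM in shScramble cells and 225 ± 50.4 CPM in parental cells (SD, n = 4 each). Lamc1 rose in the pooled contrast (log2 fold change 0.50, SE 0.15, adjusted p = 0.019; adjusted p = 0.0631 with the mitochondrial covariate) and in shHIRA I cells (log2 fold change 0.66, SE 0.18, adjusted p = 0.015; adjusted p = 0.0679 without shHIRA I replicate 1). In libraries labelled shHIRA II it was not called (log2 fold change 0.34, SE 0.18, adjusted p = 0.164). Lamc3 had 0 counts in all 4 shHIRA I libraries and at most 54.6 elsewhere, and was not tested.

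**Figure D3:**
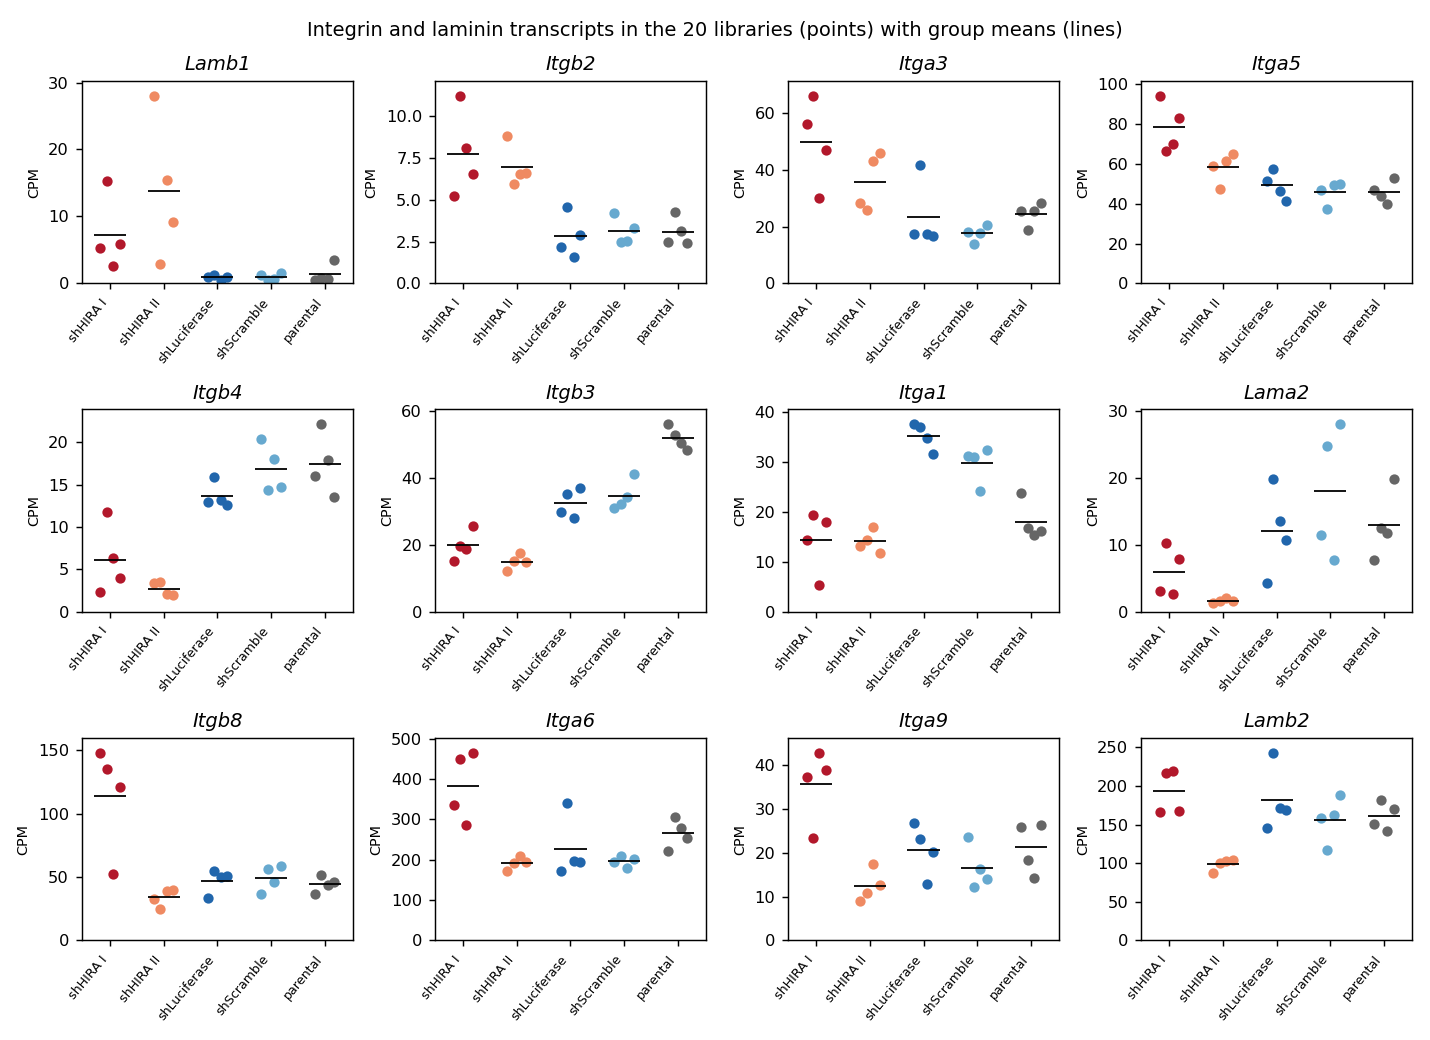
CPM of 12 members in each library (points) with group means (lines), groups in the order shHIRA I, shHIRA II, shLuciferase, shScramble and parental. Lamb1 and Itgb2 lie above, and Itgb4, Itgb3 and Itga1 below, the control hairpins in both shHIRA groups; Itgb8, Itga6 and Itga9 have their highest means in shHIRA I cells, and Lamb2 is lowest in libraries labelled shHIRA II.

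Among the receptors that bind laminin, Itga3 rose and Itgb4 fell with both hairpins. Itga3, on chromosome 11 (95044474 to 95076801, minus strand, GRCm38, ENSMUSG00000001507.16), pairs with Itgb1 and prefers laminins with Lama5 or Lama3. It had 56.3, 66.1, 30.2 and 47.2 CPM in shHIRA I cells and 28.2, 25.9, 43.1 and 45.98 CPM in libraries labelled shHIRA II. Control values were 17.3, 41.8, 17.5 and 16.6 CPM in shLuciferase cells, 18.1, 14.03, 17.9 and 20.8 CPM in shScramble cells and 25.4, 18.9, 25.5 and 28.4 CPM in parental cells. Apart from shLuciferase replicate 2, every control shRNA library lay below every shHIRA library, and parental cells overlapped the lower shHIRA II libraries. Itga3 was 2.08-fold higher in the pooled contrast (log2 fold change 1.06, SE 0.21, adjusted p = 0.000959), with a log2 fold change of 1.30 in shHIRA I cells (adjusted p = 0.000947) and 0.82 in libraries labelled shHIRA II (adjusted p = 0.0163, and 0.0573 without their replicate 4).

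Itgb4, on chromosome 11 (115974709 to 116008412, plus strand, GRCm38, ENSMUSG00000020758.15), is the beta subunit of hemidesmosomes and pairs with Itga6 only. It had 2.30, 11.8, 6.36 and 4.01 CPM in shHIRA I cells and 3.36, 3.51, 2.10 and 1.96 CPM in libraries labelled shHIRA II. Levels were 12.98, 15.9, 13.2 and 12.6 CPM in shLuciferase cells, 20.3, 14.3, 18.1 and 14.7 CPM in shScramble cells and 16.05, 22.1, 17.9 and 13.5 CPM in parental cells. All 8 shHIRA libraries lay below all 12 others, replicate 2 of shHIRA I being closest to them. Itgb4 fell 3.71-fold in the pooled contrast (log2 fold change −1.89, SE 0.25, adjusted p = 2.52e-05), with a log2 fold change of −1.31 in shHIRA I cells and −2.47 in libraries labelled shHIRA II. The hairpins differed (log2 fold change −1.16, SE 0.35, adjusted p = 0.0254), a call lost without shHIRA I replicate 2 or shHIRA II replicate 3 or 4 (adjusted p 0.00318 to 0.169 over the 20 fits). A long noncoding RNA, B230344G16Rik, overlaps Itgb4 exons on the other strand. Keratinocyte markers, a source of Itgb4 in skin, summed to at most 2.25 TPM in the shHIRA libraries, 2.07 TPM over the control hairpins and 2.72 TPM in parental cells, with Krt5 at 0.059 TPM or less.

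Itga6, the alpha partner of both Itgb1 and Itgb4, was higher in shHIRA I cells than with the control hairpins. It had 336, 449, 287 and 465 CPM in shHIRA I cells and 171, 193, 209.8 and 195 CPM in libraries labelled shHIRA II. Control values were 173, 341, 197 and 195 CPM in shLuciferase cells, 194, 209, 179 and 202 CPM in shScramble cells and 223, 306, 279.9 and 254 CPM in parental cells. The shHIRA II libraries overlapped the control hairpins and lay below all shHIRA I libraries, and shLuciferase replicate 2 and parental replicate 2 reached into the shHIRA I range. Itga6 rose in shHIRA I cells (log2 fold change 0.87, SE 0.16, adjusted p = 0.000901) and differed between the hairpins (log2 fold change −0.999, SE 0.19, adjusted p = 0.00143). The pooled call (log2 fold change 0.37, SE 0.14, adjusted p = 0.0494) held only without shLuciferase 2, shHIRA I 1 or 3 or shHIRA II 1 and was lost in the other 16 of 20 fits (adjusted p 0.00252 to 0.0983). Itgb1 had 772, 972, 557 and 1121 CPM in shHIRA I cells and 594, 606, 605 and 581 CPM in libraries labelled shHIRA II. It had 590.3, 840.5, 687 and 695 CPM in shLuciferase cells, 562, 764, 607 and 619 CPM in shScramble cells and 589, 810.4, 782 and 678 CPM in parental cells, and all groups overlapped in range. Neither hairpin moved Itgb1 past the threshold (log2 fold change 0.35, SE 0.15, adjusted p = 0.11 in shHIRA I cells; log2 fold change −0.17, SE 0.15, adjusted p = 0.43 in libraries labelled shHIRA II). The libraries labelled shHIRA II were below shHIRA I (log2 fold change −0.52, SE 0.18, adjusted p = 0.0426), a call lost in 12 of 20 fits without 1 library (adjusted p 0.00238 to 0.171), namely parental 3 or 4, shLuciferase 3 or 4, shScramble 3 or 4, shHIRA I 2 or 4, or any shHIRA II library. Itga7, which binds laminin with Itgb1 and is best known from muscle, had 0 to 1.95 CPM in shHIRA I cells and 2.10 to 4.32 CPM in libraries labelled shHIRA II, against 0 to 2.07 CPM over the control hairpins, and was not called (pooled contrast, log2 fold change 1.10, SE 0.77, adjusted p = 0.299).

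Setting each laminin beside its receptors, the chains with the largest fold changes, Lamb1 and Lama2, were at low TPM, and the calls differed between chains of the same trimer. For laminin-511 in shHIRA I cells, Lama5, Lamb1 and Lamc1 were all called higher, and so were Itga3 and Itga6, whereas Itgb1 was not called and Itgb4 was lower. For laminin-521 in shHIRA I cells the beta chain Lamb2 was not called. In libraries labelled shHIRA II, Lamb1 and Itga3 alone of the laminin-511 chains and receptors were higher, and Lamb2 of laminin-521 and Itgb4 were lower. For laminin-211, Lama2 was lower and Lamb1 higher with each hairpin, though the Lama2 call in shHIRA I cells was lost in most fits without 1 library. Of the receptor subunits set beside laminin-211, Itga6 was higher in shHIRA I cells only, and Itga7 and Itgb1 were not called. Itga3, which prefers laminins with Lama5 or Lama3, was higher with each hairpin. For laminin-332, the receptor subunit Itga3 was higher and Itgb4 lower with each hairpin, Itga6 was higher in shHIRA I cells only, and Lama3 was not tested. For laminin-421, the chain Lama4 was not called with either hairpin.

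The collagen receptor subunits Itga1 and Itga2, which pair with Itgb1 and bind collagen IV and collagen I, were lower in cells with HIRA hairpins than in cells with control hairpins. Itga1, on chromosome 13 (114953096 to 115101964, minus strand, GRCm38, ENSMUSG00000042284.10), had 14.5, 19.4, 5.34 and 18.1 CPM in shHIRA I cells and 13.1, 14.5, 17.03 and 11.9 CPM in libraries labelled shHIRA II. Control values were 37.6, 36.98, 34.96 and 31.7 CPM in shLuciferase cells, 31.3, 31.1, 24.3 and 32.6 CPM in shScramble cells and 23.8, 16.7, 15.4 and 16.2 CPM in parental cells. All shHIRA values lay below all control shRNA values, but parental cells lay below them too and overlapped the shHIRA libraries. Itga1 fell 2.28-fold in the pooled contrast (log2 fold change −1.19, SE 0.19, adjusted p = 0.000143) and by like amounts with each hairpin (log2 fold change −1.18 and −1.20; difference −0.02, SE 0.27). With the mitochondrial covariate the value of libraries labelled shHIRA II was −0.66 (adjusted p = 0.0856). Against parental cells the pooled shHIRA groups were not called (log2 fold change −0.34, SE 0.23, adjusted p = 0.301), and the control hairpins were 1.80-fold above parental cells without passing the threshold (log2 fold change 0.85, SE 0.24, adjusted p = 0.051). Exons of Itga1 overlap the gene Gm49395 on the same strand, so the counting could split reads between them.

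Itga2 had 1.57, 3.06, 0.752 and 2.23 CPM in shHIRA I cells and 1.48, 1.44, 1.54 and 1.18 CPM in libraries labelled shHIRA II. Levels were 2.85, 2.87, 4.17 and 3.76 CPM in shLuciferase cells, 4.24, 4.37, 3.52 and 6.74 CPM in shScramble cells and 3.93, 9.36, 8.50 and 3.80 CPM in parental cells. The shHIRA II values were below all controls, and shHIRA I replicate 2 alone reached the lowest control hairpin values. Itga2 fell in the pooled contrast (log2 fold change −1.29, SE 0.27, adjusted p = 0.00154; −0.84 and adjusted p = 0.0521 with the mitochondrial covariate) and in libraries labelled shHIRA II (log2 fold change −1.50, SE 0.35, adjusted p = 0.00308; −0.85 and adjusted p = 0.125 with the covariate). The call in shHIRA I cells (log2 fold change −1.07, SE 0.34, adjusted p = 0.0323) was lost without shLuciferase 3 or 4, shScramble 4 or shHIRA I 1, 3 or 4 (adjusted p 0.011 to 0.0899 over 20 fits). Unlike Itga1, Itga2 was also lower in the pooled shHIRA groups than in parental cells (log2 fold change −1.96, SE 0.31, adjusted p = 0.000235). Of the other collagen receptor alphas, Itga10 was not called against control shRNA (pooled contrast, log2 fold change 0.24, SE 0.30, adjusted p = 0.583). Itga11 reached the count minimum through shHIRA libraries only, so no test of it against control shRNA is given.

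Receptors for fibronectin and vitronectin moved in both directions. Itga5, which forms the main fibronectin receptor with Itgb1, had 94.1, 66.4, 69.9 and 83.2 CPM in shHIRA I cells and 59.1, 47.6, 61.4 and 64.8 CPM in libraries labelled shHIRA II. It had 51.3, 57.6, 46.7 and 41.2 CPM in shLuciferase cells, 46.8, 37.4, 49.3 and 49.9 CPM in shScramble cells and 47.2, 43.7, 39.8 and 53.02 CPM in parental cells. All shHIRA I values lay above all other libraries. Itga5 rose in the pooled contrast (log2 fold change 0.51, SE 0.11, adjusted p = 0.00167) and in shHIRA I cells (log2 fold change 0.72, SE 0.13, adjusted p = 0.000583), and was not called in libraries labelled shHIRA II (log2 fold change 0.29, SE 0.13, adjusted p = 0.0913), although the difference between the hairpins did not pass either (log2 fold change −0.43, SE 0.15, adjusted p = 0.0512). Itgav, the alpha partner of Itgb3, Itgb5, Itgb6 and Itgb8, was not called (pooled contrast, log2 fold change 0.18, SE 0.15, adjusted p = 0.4).

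Itgb3, a marker of invasive melanoma and the vitronectin receptor subunit with Itgav, was lower with each hairpin. The gene lies on chromosome 11 (104608000 to 104670476, plus strand, GRCm38, ENSMUSG00000020689.4). It had 15.3, 19.6, 18.7 and 25.7 CPM in shHIRA I cells and 12.1, 15.2, 17.6 and 14.8 CPM in libraries labelled shHIRA II. Values were 29.8, 35.2, 27.9 and 37.1 CPM in shLuciferase cells, 30.9, 32.3, 34.4 and 41.04 CPM in shScramble cells and 55.9, 52.9, 50.5 and 48.4 CPM in parental cells. The 3 kinds of cell did not overlap: all shHIRA libraries were below all control hairpins, and these were below all parental libraries. Itgb3 fell 1.95-fold in the pooled contrast (log2 fold change −0.96, SE 0.11, adjusted p = 8.5e-06), with a log2 fold change of −0.76 in shHIRA I cells and −1.17 in libraries labelled shHIRA II. It was the sole member called between the control hairpins and parental cells (log2 fold change −0.63, SE 0.13, adjusted p = 0.0131; 0.0533 without parental replicate 1, and with limma 0.0911 on log2(TPM + 1) and 0.103 on log2(TPM + 0.1)), where 3.61% of all genes were called (1.56% of all were lower).

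Itgb5, the beta subunit of a second vitronectin receptor, had 109.7, 139, 432 and 159.9 CPM in shHIRA I cells and 119, 132, 110.3 and 124 CPM in libraries labelled shHIRA II. Its values were 62.7, 157, 71.2 and 93.9 CPM in shLuciferase cells, 79.9, 68.5, 79.4 and 96.9 CPM in shScramble cells and 146, 125, 106 and 136 CPM in parental cells. Replicate 3 of shHIRA I was far above all others, and parental cells overlapped the rest of the shHIRA libraries. Itgb5 rose in the pooled contrast (log2 fold change 0.85, SE 0.24, adjusted p = 0.011; 0.36 and adjusted p = 0.393 with the mitochondrial covariate) and in shHIRA I cells (log2 fold change 1.25, SE 0.28, adjusted p = 0.00352; 0.63 without replicate 3). It was not called against parental cells (log2 fold change 0.31, SE 0.29, adjusted p = 0.472). Itgb8, which with Itgav releases active TGF-beta, had 148, 135, 52.3 and 121 CPM in shHIRA I cells and 32.2, 24.6, 38.9 and 39.97 CPM in libraries labelled shHIRA II. It had 33.3, 54.5, 50.4 and 50.5 CPM in shLuciferase cells, 36.4, 56.3, 45.99 and 58.4 CPM in shScramble cells and 36.5, 51.3, 43.9 and 46.3 CPM in parental cells. Replicates 1, 2 and 4 of shHIRA I lay above all other libraries and replicate 3 within the controls, while all shHIRA II values lay below all shHIRA I values. Itgb8 rose in shHIRA I cells (log2 fold change 1.24, SE 0.21, adjusted p = 0.00043), was not called in libraries labelled shHIRA II (log2 fold change −0.51, SE 0.23, adjusted p = 0.0957), and differed between the hairpins (log2 fold change −1.75, SE 0.26, adjusted p = 0.000202).

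The RGD receptor alpha Itga8 was called in shHIRA I cells (log2 fold change 1.12, SE 0.35, adjusted p = 0.0316), a call lost without shLuciferase 1, 3 or 4, shScramble 2 or 4 or shHIRA I 2 or 4 (adjusted p 0.00107 to 0.228). With limma its adjusted p was 0.133 on log2(TPM + 1) and 0.197 on log2(TPM + 0.1). Itga2b, the platelet alpha subunit that pairs with Itgb3, had 4.70, 8.53, 8.89 and 3.71 CPM in shHIRA I cells and 3.24, 4.03, 3.13 and 3.03 CPM in libraries labelled shHIRA II. It had 3.26, 4.75, 3.31 and 3.70 CPM in shLuciferase cells, 3.97, 4.71, 3.26 and 3.49 CPM in shScramble cells and 2.52, 2.20, 1.87 and 2.52 CPM in parental cells, with replicates 2 and 3 of shHIRA I highest. Itga2b was called in shHIRA I cells (log2 fold change 0.76, SE 0.23, adjusted p = 0.0243; lost without its replicate 2 or 3, adjusted p 0.00642 to 0.0958 over the 20 fits) and between the hairpins (log2 fold change −0.94, SE 0.27, adjusted p = 0.0193; lost without shHIRA I 2 or shHIRA II 1, 3 or 4, adjusted p 0.00673 to 0.07). Itgb6, an epithelial partner of Itgav, rested on 1 library: it had 0.523, 0.279, 1.03 and 0.148 CPM in shHIRA I cells and 4.55, 0.691, 0.205 and 0.0561 CPM in libraries labelled shHIRA II, against 0 to 0.743 CPM over the control hairpins. Its log2 fold change in the pooled contrast was 2.20, and 1.17 without shHIRA II replicate 1.

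Itgb2, the beta subunit of leukocyte integrins, rose with both hairpins at a low level. The gene lies on chromosome 10 (77530252 to 77565708, plus strand, GRCm38, ENSMUSG00000000290.13). It had 5.23, 11.2, 8.07 and 6.53 CPM in shHIRA I cells and 8.82, 5.93, 6.52 and 6.62 CPM in libraries labelled shHIRA II. Values were 2.19, 4.55, 1.58 and 2.90 CPM in shLuciferase cells, 4.19, 2.50, 2.54 and 3.31 CPM in shScramble cells and 2.46, 4.24, 3.16 and 2.41 CPM in parental cells, and all 12 of these lay below all shHIRA values. Itgb2 was 2.48-fold higher in the pooled contrast (log2 fold change 1.31, SE 0.23, adjusted p = 0.00035), with a log2 fold change of 1.38 in shHIRA I cells and 1.23 in libraries labelled shHIRA II. Its alpha partner Itgal had 1.67, 0.724, 0.821 and 1.34 CPM in shHIRA I cells and 1.36, 0.633, 1.03 and 0.898 CPM in libraries labelled shHIRA II. It had 0.593, 0.297, 0.204 and 0.569 CPM in shLuciferase cells, 0.326, 0.284, 0.103 and 0.187 CPM in shScramble cells and 0, 0.220, 0.104 and 0.0514 CPM in parental cells, without overlap between shHIRA and other libraries. These were 11.3 to 31.8 counts a library in the shHIRA groups and at most 10 elsewhere, so that Itgal reached the count minimum through the shHIRA libraries and its difference is a description only. The other partners of Itgb2 were not tested: Itgam had at most 39 counts in a library, Itgad 17.4 and Itgax 5. The 6 leukocyte markers summed to 11.7 to 17.9 TPM in shHIRA I cells and 7.28 to 10.1 TPM in libraries labelled shHIRA II, against 10.4 to 15.04 TPM over the control hairpins and 7.21 to 11.4 TPM in parental cells. Most of this was Lyz2 and Cd68, while Ptprc was at 0.128 TPM or less and Cd3e at 0.052 TPM or less in all 20 libraries.

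Itga9, which pairs with Itgb1 and binds tenascin-C, VCAM-1 and osteopontin, separated the hairpins. It had 37.4, 23.3, 42.8 and 39.03 CPM in shHIRA I cells and 9.10, 10.8, 17.3 and 12.7 CPM in libraries labelled shHIRA II. Control values were 26.9, 23.2, 12.8 and 20.1 CPM in shLuciferase cells, 23.6, 12.2, 16.2 and 14.1 CPM in shScramble cells and 26.00, 18.3, 14.4 and 26.5 CPM in parental cells. All shHIRA II values lay below all shHIRA I values, and both overlapped the controls. Itga9 rose in shHIRA I cells (log2 fold change 0.94, SE 0.23, adjusted p = 0.0068; adjusted p = 0.0526 with the mitochondrial covariate) and differed between the hairpins (log2 fold change −1.51, SE 0.28, adjusted p = 0.00106), and was not called in libraries labelled shHIRA II (log2 fold change −0.57, SE 0.25, adjusted p = 0.0838). Its relative Itga4, and Itgae, were not called in any comparison with control shRNA (log2 fold change 0.20, SE 0.28, adjusted p = 0.631 for Itga4 and log2 fold change −0.50, SE 0.33, adjusted p = 0.27 for Itgae in the pooled contrast), and Itgb7, their beta partner in leukocytes, was not tested.

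Between the hairpins, 8 members were lower in libraries labelled shHIRA II than in shHIRA I cells and none was higher, against 20.9% of all genes called, 12.4% lower and 8.56% higher. They were Itga2b, Itga6, Itga9, Itgb1, Itgb4, Itgb8, Lama2 and Lamb2, with a median log2 difference of −0.47 over the 31 tested, against −0.05 over all genes. On log2(TPM + 1) tested with limma, 5 were lower and 1 higher, and the shares of all genes called in that fit are not given here. The ranges of the hairpins did not overlap for 7 members that were below (9.61% of all genes), Itga5, Itga6, Itga9, Itgav, Itgb8, Lama2 and Lamb2, and for Itga7, which was above (8.67% of all). The hairpins also differed in Hira itself (log2 fold change 0.86, SE 0.16, adjusted p = 0.000966).

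Comparisons among controls gave few calls. Between shScramble and shLuciferase no member was called, against 0% of all genes; at an unadjusted p under 0.05 there were 0 of the 31 members and 174 of all 13639 genes, and DESeq2 called no member either. Between the control hairpins and parental cells 1 member, Itgb3, was called, against 3.61% of all genes. An unadjusted p under 0.05 (edgeR's quasi-likelihood F test) was found for 9 members, 7 of them integrin alpha genes. The share of all genes at that p is not given here, so the 9 are no result about the members. The ranges of control hairpins and parental cells did not overlap for Itga1, Itga2b, Itgae and Itga11, which were above (3.31% of all genes). The same held for Itgb3, which was below (3.01% of all). Itga11 was at under 10 counts in all of these libraries. Itgae reached 10 counts in 0 parental libraries and had to be high elsewhere to be tested. The members above are therefore not read against the 3.31%. Against parental cells, 14 members were called in the pooled shHIRA groups, against 24.4% of all genes, 12.4% higher and 11.9% lower: 10 higher (Itga10, Itga11, Itga2b, Itga3, Itga5, Itgal, Itgb2, Lama1, Lama5 and Lamb1) and 4 lower (Itga2, Itgb3, Itgb4 and Lama2). Of the 10, Itga11, Itgal and Lama1 reached 10 counts in 0 parental libraries and had to be high elsewhere to be tested, so the 10 are not read against the 12.4%. This comparison shares the shHIRA libraries with those above. Its values were log2 fold change 2.87, SE 0.65, adjusted p = 0.0037 for Lamb1 (3.94 without parental replicate 4), log2 fold change −2.09, SE 0.28, adjusted p = 6.47e-05 for Itgb4 and log2 fold change 1.26, SE 0.29, adjusted p = 0.00418 for Itgb2. For Itgal, Itga11 and Lama1 no fold is given. The call of Itga10 was kept in the 6 of 20 fits that left out parental 2, shLuciferase 1 or 2, shHIRA I 3 or shHIRA II 3 or 4 (adjusted p 0.0255 to 0.132). That of Itga3 was lost without any 1 parental library, shHIRA I 1 or 2 or shHIRA II 3 or 4 (0.00857 to 0.115), and that of Lama5 without parental 2 or 4, shHIRA I 2 or shHIRA II 3 (0.021 to 0.134).

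The ligands and partners around these receptors were read from 6 lists chosen with earlier results of these data known. In the pooled contrast, 7 of 10 tested basement membrane partners of laminin (of 16 listed) were higher and 1 lower, against 14.1% and 15% of all genes, with a median log2 fold change of 0.91 against 0.03 over all genes. They included the collagen IV chains Col4a5 (log2 fold change 3.67, SE 0.47, adjusted p = 1.89e-05), Col4a4 (1.33) and Col4a2 (1.19), the laminin linker Nid2 (1.93), Col18a1 (1.68), the collagen-binding Sparc (0.63) and perlecan, Hspg2 (0.55), while Col4a3 (−0.50) was lower. Of 13 tested other ligands of integrins (of 16), 9 were higher and 1 lower, against the same shares of all genes, with a median of 1.01 against 0.03. Among them were fibronectin, Fn1 (log2 fold change 1.76, SE 0.36, adjusted p = 0.00133), the Itga9 ligands tenascin-C, Tnc (2.49), and Vcam1 (1.01; by hairpin 2.91 for shHIRA I and −0.89 for shHIRA II, both called), the matricellular proteins Ctgf (2.68) and Cyr61 (1.49), Col1a1 (2.11) and Fbn1 (2.04), whereas osteopontin, Spp1 (−0.90), was lower. With shHIRA I, 7 of the first list and 11 of the second were higher and none lower, against 10.8% and 8.8% of all genes. In libraries labelled shHIRA II, 5 of the first were higher and 3 lower, and 4 of the second higher and 3 lower, against 15.7% and 16.6% of all genes. Col1a1 and Col1a2 are also among the fibroblast markers, whose summed level is given above; the part of other cell types in these values was not tested.

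Laminin receptors that are not integrins were called higher for 4 of 8 and lower for 1 in the pooled contrast, against 14.1% and 15% of all genes, with a median of 0.43 against 0.03 over all. The Lutheran receptor Bcam, which binds Lama5, had a log2 fold change of 2.90 (SE 0.39, adjusted p = 3.31e-05) and the melanoma adhesion molecule Mcam of 1.66 (SE 0.23, adjusted p = 3.29e-05). The syndecans Sdc4 (1.13) and Sdc1 (0.69) were higher and Sdc3 (−0.50) lower, and dystroglycan, Dag1, was not called (log2 fold change −0.43, SE 0.17, adjusted p = 0.0651). The fall of Sdc3 was that of libraries labelled shHIRA II (−1.46, adjusted p = 1.68e-05); for shHIRA I its value was 0.46 (adjusted p = 0.0622). With shHIRA I, 5 of the 8 receptors were higher and none lower, against 10.8% and 8.8% of all genes. In libraries labelled shHIRA II, 3 were higher and 3 lower, against 15.7% and 16.6% of all genes. Of 26 tested adaptors and focal adhesion genes (of 28), 11 were higher and 2 lower in the pooled contrast. These stood against 14.1% and 15% of all genes, with a median of 0.39 against 0.03. Against parental cells, 2 of the 26 were higher in the pooled shHIRA groups and 4 lower (12.4% and 11.9% of all genes). That median was 0.09, against 0.01 over all. For the control hairpins against parental cells the median was −0.35, against 0.01 over all. Those higher in the pooled contrast included Lims2 (1.66), Ptk2b (1.25), Zyx (1.14), Bcar1 (0.87), paxillin, Pxn (0.72), Flna (0.65) and Lims1 (0.62), and Rsu1 was lower (−0.72). Among membrane partners, 1 of 7 tested (of 9) was higher, the tetraspanin Cd151 (0.46), and Cd82 (−0.87), Cd47 (−0.42) and Cd9 (−0.40) were lower; 1 of 7 is near the 14.1% of all genes, and the median was −0.10 against 0.03. Cd82 was lower with each hairpin. Cd47 fell in shHIRA I cells (−0.93, adjusted p = 0.00177) and was 0.08 in libraries labelled shHIRA II (adjusted p = 0.762). Cd9 fell in libraries labelled shHIRA II (−1.14, adjusted p = 4.91e-05) and was 0.33 in shHIRA I cells (adjusted p = 0.138). Of the 3 hemidesmosome partners of Itgb4, Dst was lower in the pooled contrast (log2 fold change −0.52, SE 0.15, adjusted p = 0.0142), against 15% of all genes. Plec (log2 fold change 0.12, SE 0.14, adjusted p = 0.548) and Col17a1 (log2 fold change 0.82, SE 0.48, adjusted p = 0.215) were not called. In shHIRA I cells 1 of the 3 was higher and none lower, against 10.8% and 8.8% of all genes, so Dst was not called lower there. In libraries labelled shHIRA II 1 was lower and none higher, against 16.6% and 15.7% of all.

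**Figure D4:**
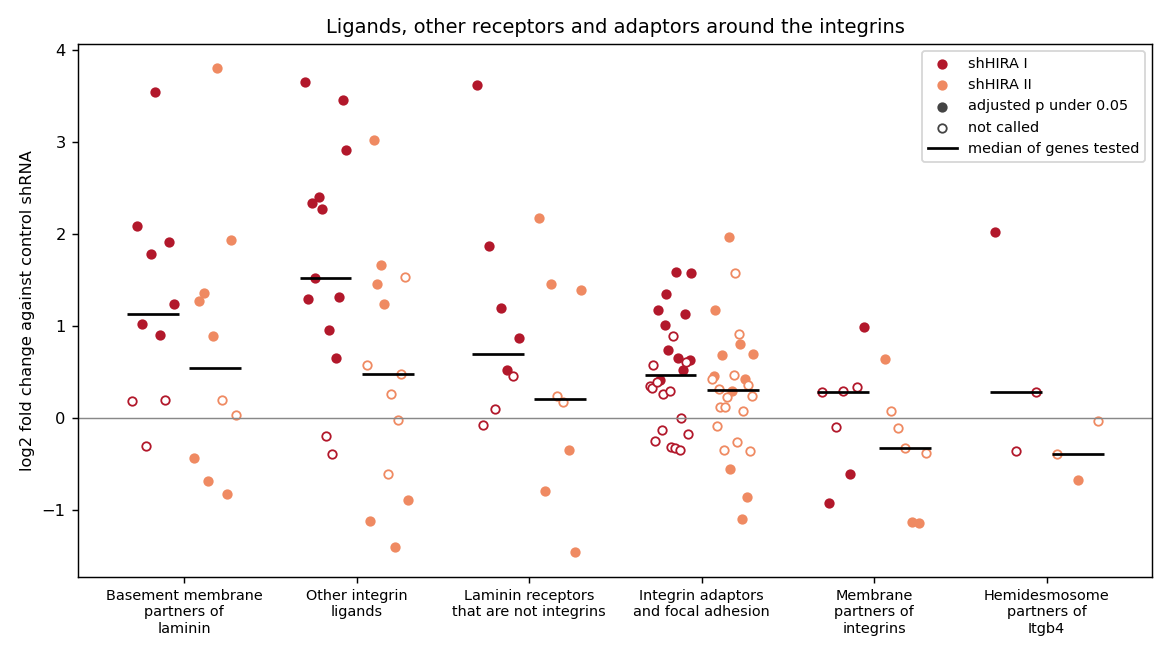
Log2 fold change against the mean of both control shRNA groups of each tested gene in the 6 lists, in shHIRA I cells (red) and in libraries labelled shHIRA II (orange); filled points have an adjusted p under 0.05 and lines are medians. The shHIRA I medians of the first lists are 1.13 and 1.52, and those of libraries labelled shHIRA II are 0.54 and 0.48.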

How the data were processed

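Counts and TPM per gene were taken from the authors' deposited tables; the deposited counts are estimated counts, not whole numbers, and the deposited TPM sum to 793366 to 864638 a library. The tools named in the submitters' processing notes are bcl2fastq, kallisto and edgeR, and the build is mm10; versions, annotation and strand setting are not given in the sources used here. Per the labels' protocols, libraries were made with a directional kit. The ratio of count to TPM was constant per gene across libraries to within 1.2e-09 (log2; 9494 genes), so 1 length per gene served all libraries. Columns whose name says control and gives no hairpin were mapped to parental cells, and shHIRA columns without a numeral to shHIRA I.

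The members and lists were chosen with earlier results of these data known. Estimated counts were rounded, genes with 10 or more counts in at least 4 libraries kept (13639), and 1 model with a mean per group fitted to the 20 libraries with edgeR 4.0.16 (TMM, quasi-likelihood F test, R 4.3.3), with Benjamini-Hochberg adjustment over all genes. In simulated data for the pooled contrast (13444 genes), 66 of 100 genes changed 2-fold and 89 of 100 changed 4-fold were recovered, with 7 false calls. CPM are TMM-scaled; errors are SD over 4 libraries or SE of the fit. The labels call the 4 libraries of a group biological replicates and the design text independent; p-values measure the spread between them. Values in every library are given for the members among the 14 of largest fold change called in the pooled contrast, for those differing between hairpins and for those called in all 4 hairpin comparisons; list genes are named where called, up to 8 per list, with some not called added for contrast. Alternatives were RLE scaling, edgeR's group filter, no filter, DESeq2 1.42.0, limma 3.58.1 on log2(TPM + 1) and log2(TPM + 0.1), a replicate block, the mitochondrial mRNA share as covariate, and leaving out parental cells, the 2 libraries lowest in that share, each library, or (chosen after seeing the data) shHIRA I 3 and shLuciferase 2 together. Gene positions are from GENCODE M21 and promoters from RefSeq (GRCm38.p6); 27 rows bore spreadsheet dates for names and were not used. Exons of another gene overlap those of 12 members. The counts of members called cover all those tested; values of 1 of them are not reported here, in the text or the figures.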

Additional observations from a re-analysis of the deposited data

Results flagged for a closer look

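In 11 groups of 4 libraries, 1 library lay far from the other 3; 155 groups were examined and chance flags about 1 in 20, or 7.75. With shHIRA I, Itgb5 in replicate 3 was 432 CPM (the others 109.7 to 159.9). In libraries labelled shHIRA II, Itgb6 in replicate 1 was 4.55 CPM (others 0.0561 to 0.691). With shLuciferase, replicate 2 had 41.8 CPM of Itga3 (others 16.6 to 17.5), 341 CPM of Itga6 (173 to 197) and 49.2 CPM of Lama5 (24.8 to 28.1), and replicate 1 had 3.32 CPM of Itga10 (1.14 to 1.32). With shScramble, replicate 1 had 2.56 CPM of Itga4 (0.983 to 1.25) and replicate 2 had 0.227 CPM of Itgb6 (0.0517 to 0.0624). Among parental libraries, replicate 1 had 23.8 CPM of Itga1 (15.4 to 16.7), and replicate 4 had 0.308 CPM of Lama1 (0 in the others) and 3.49 CPM of Lamb1 (0.553 to 0.771).

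The log2 fold change of libraries labelled shHIRA II was below that of shHIRA I for 8 members, by edgeR's test of the difference: Itga2b (−0.94), Itga6 (−0.999), Itga9 (−1.51), Itgb1 (−0.52), Itgb4 (−1.16), Itgb8 (−1.75), Lama2 (−1.87) and Lamb2 (−0.97).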

How the results depend on the processing

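Of 70 member calls in 7 contrasts, none changed direction over 2147 values under alternatives, 191 of these lost the call, and 40 calls were kept under every alternative. Leaving out 1 library gave 18 to 25 members called across 5 groups, 12 to 17 in the pooled contrast, 15 to 19 in shHIRA I cells, 10 to 13 in libraries labelled shHIRA II, 5 to 11 between hairpins, 0 to 0 between control hairpins, 0 to 3 for control hairpins against parental cells, 10 to 16 for shHIRA groups against parental cells, and 4 to 5 in all 4 hairpin comparisons. Between hairpins it was 5 without shHIRA I 2 or shHIRA II 4. For control hairpins against parental cells, 1 member was called, against 2 with RLE scaling (1 higher, 1 lower), 4 with DESeq2, 3 with the mitochondrial covariate, 2 without the 2 libraries lowest in that share and 5 without shHIRA I 3 and shLuciferase 2; without 1 library it was 0 (parental 1), 2 (parental 4, shHIRA I 1) or 3 (shLuciferase 2, shHIRA I 2 or 3). With the covariate the pooled contrast called 14, of which 11 were among the 16. With the replicate number as a block, 15 were called in the pooled contrast and 2 for control hairpins against parental cells; deviations of same-numbered libraries correlated in 17 of 40 pairs above 0.1 (mean 0.0668), and 13 of 20 libraries matched their own number best; not every pair was above 0.1, so the numbers were not taken as pairs. The block lost the calls of Itga8 in shHIRA I cells (0.98, adjusted p = 0.056) and of Itgb6. With limma on log2 TPM, which changes scaling, pseudocount and model together, the median of all genes in the pooled shHIRA groups against parental cells was 0.12 (pseudocount 1) or 0.15 (0.1), against 0.01 on counts. Depth limits members below about 1 CPM, among them Itgal, Itgb6 and Itga11. Shares of all genes called under the alternatives are not given here, so changes in these counts are not read as results about the members. The causes were not tested.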

Other observations

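Among the genes of the ligand, partner and marker lists, 6 were called in opposite directions by the hairpins. Over all genes tested, 0.557% were higher in shHIRA I cells and lower in libraries labelled shHIRA II, and 0.286% the reverse. The number of genes tested over these lists together is not given here, so the 6 are not read against these shares. The genes named here were chosen after their values were seen. Vcam1, the ligand of integrins with Itga4 or Itga9, averaged 172 ± 46.5 CPM in shHIRA I cells and 12.3 ± 4.13 CPM in libraries labelled shHIRA II, against 23.2 ± 5.85 CPM in shLuciferase cells, 22.4 ± 3.70 CPM in shScramble cells and 18.7 ± 2.34 CPM in parental cells (SD, n = 4 each). Its log2 fold change against control shRNA was 2.91 in shHIRA I cells and −0.89 in libraries labelled shHIRA II (edgeR adjusted p = 4.34e-08 and 0.004). Col1a2 had 1.30 and −1.12, talin 2 (Tln2) 1.13 and −0.86, and the Cas family adaptor Nedd9 0.74 and −0.56. Itga9 and Tnc rose in shHIRA I cells beside Vcam1, and Itga4 was not called.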
